A study of Mus musculus with 2 samples.

Results

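The replication-dependent histone genes encode the histones that package newly copied DNA. They were taken as the protein-coding genes of the Hist1, Hist2, Hist3 and Hist4 clusters, by symbol, in the annotation of the mouse genome. Of 67 such symbols, 64 had a row in the deposited gene tables, among 21474 protein-coding rows and 69691 rows in all. The other 3 (Hist2h2bb, Hist1h2bm and Hist1h2bh) were not analysed here. The 64 genes comprised 6 genes of linker histone H1 and 18 of H2A, 15 of H2B, 12 of H3 and 13 of H4, and 52 of them lie on chromosome 13.

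RNA came from livers of B6NCrl mouse embryos at embryonic day 11.5, male and female embryos pooled. The series has 2 libraries of this kind, named in the labels as biological replicates, and no second condition. The label of replicate 1 gives 109 embryos, and that of replicate 2 gives pooled embryos. Spike-in RNAs were added to RNA of a size range above 200, and 1 cell-equivalent per library was used. The labels call the molecule total RNA and describe each library as total RNA-seq, but they also point to a SmartSeq protocol, a method that as generally described primes cDNA on poly(A) with oligo-dT. The labels do not state the primer, so whether RNA without a poly(A) tail could be captured is not known here. The labels name the assay as single-cell, but the input was a fraction of RNA from pooled tissue, so fewer cells of a type and less RNA per cell cannot be told apart.

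Replication-dependent histone genes are transcribed during S phase, and most of their mRNAs, unlike other animal mRNAs, end without a poly(A) tail. Their 3' end is a short stem-loop that is bound by the protein Slbp and cut with the help of the U7 small nuclear ribonucleoprotein. Histones H2A, H2B, H3 and H4 form the core around which DNA winds, and H1 binds the DNA between cores. Many of these genes are near copies of each other, and H2A and H2B genes often stand head to head.

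The stem-loop sites of the genes are shown first because the absence of a poly(A) tail bears on capture if priming was on poly(A). A stem-loop was searched on the sense strand as an arm of 6 bases beginning GG, the loop TTTC and the reverse complement of the arm. It was found in a reference transcript of 33 of the 64 genes and in 2 of 36038 other protein-coding transcripts, 0.00555%. A gene without a match only has none of these letters in its annotated transcript. The transcript model was the same in both annotation releases for 46 genes. Of these, 13 had no match and a model whose last letters spell a stop codon. The reading frame was not located, so these letters need not be the stop codon of the histone. The sites below, with the stem-loop in capitals and the 14 bases before it in lower case, are those of the 4 highest genes with a site, of the near copy Hist1h2ao, and of Hist1h1c, which differed most between the libraries.
Hist1h2ap, chr13:21833029-21833058, minus strand: agaaaaaaaaaaaaGGCTCTTTTCAGAGCC
Hist1h2ao, chr13:21810884-21810913, plus strand: agaaaaaaaaaaaaGGCTCTTTTCAGAGCC
Hist1h4d, chr13:23581936-23581965, plus strand: acccaaaaaccaaaGGCCCTTTTCAGGGCC
Hist1h2ae, chr13:23570668-23570697, minus strand: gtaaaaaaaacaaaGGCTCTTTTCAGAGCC
Hist1h2ag, chr13:22042483-22042512, minus strand: tgatcgccaacaaaGGCTCTTTTCAGAGCC
Hist1h1c, chr13:23739498-23739527, plus strand: ctaacaatccaaaaGGCTCTTTTCAGAGCC

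Coordinates are on mm10, and the letters come from the reference transcripts. These transcripts do not all end at the stem-loop. After it come 840 bases in Hist1h1c, 770 in Hist1h4d and 151 in Hist1h2ae. In Hist1h2ap, Hist1h2ao and Hist1h2ag 3, 31 and 23 bases follow. The deposited models of Hist1h4d and Hist1h2ae differ from the reference, with 393 and 460 bases. Among 30 genes whose site could be placed on the genome, the stem-loop of Hist1h2ap was shared by 21 genes of H1, H2A, H2B and H3. The stem-loop of Hist1h4d was found in 7 genes, all of H4, and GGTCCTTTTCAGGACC in 2 further H4 genes. The sites of Hist1h2ap, Hist1h4d and Hist1h2ae, the 3 highest genes, carry runs of 12, 5 and 8 adenines before the stem-loop.

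Levels are in TPM, the deposited relative abundance per transcript length, and a gene counted as detected at a TPM of at least 1. The 64 genes together held 5107 TPM in replicate 1 and 6289 in replicate 2, or 0.570% ± 0.0836 of all TPM (SD, n = 2). They drew 60479 of 33289699 expected reads in replicate 1 and 70159 of 32607453 in replicate 2. The sum was carried by few genes. In each library 3 genes reached a TPM of 100, and 22 genes had no read in either library, which with a floor of 3 reads allows a CPM (reads scaled to a common library total) of up to 0.0901 in replicate 1 and 0.092 in replicate 2.

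Detection differed from gene to gene between the libraries. Of the 64 genes, 14 (21.9%) were detected in both libraries, against 27.3% of all protein-coding rows. Another 14 (21.9%) were detected in replicate 1 alone, against 9.68% of protein-coding rows, and 6 (9.38%) in replicate 2 alone, against 7.07%. The remaining 30 were detected in neither. Replicate 1 had 7948 detected protein-coding rows and replicate 2 had 7389.

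**Figure D1:**
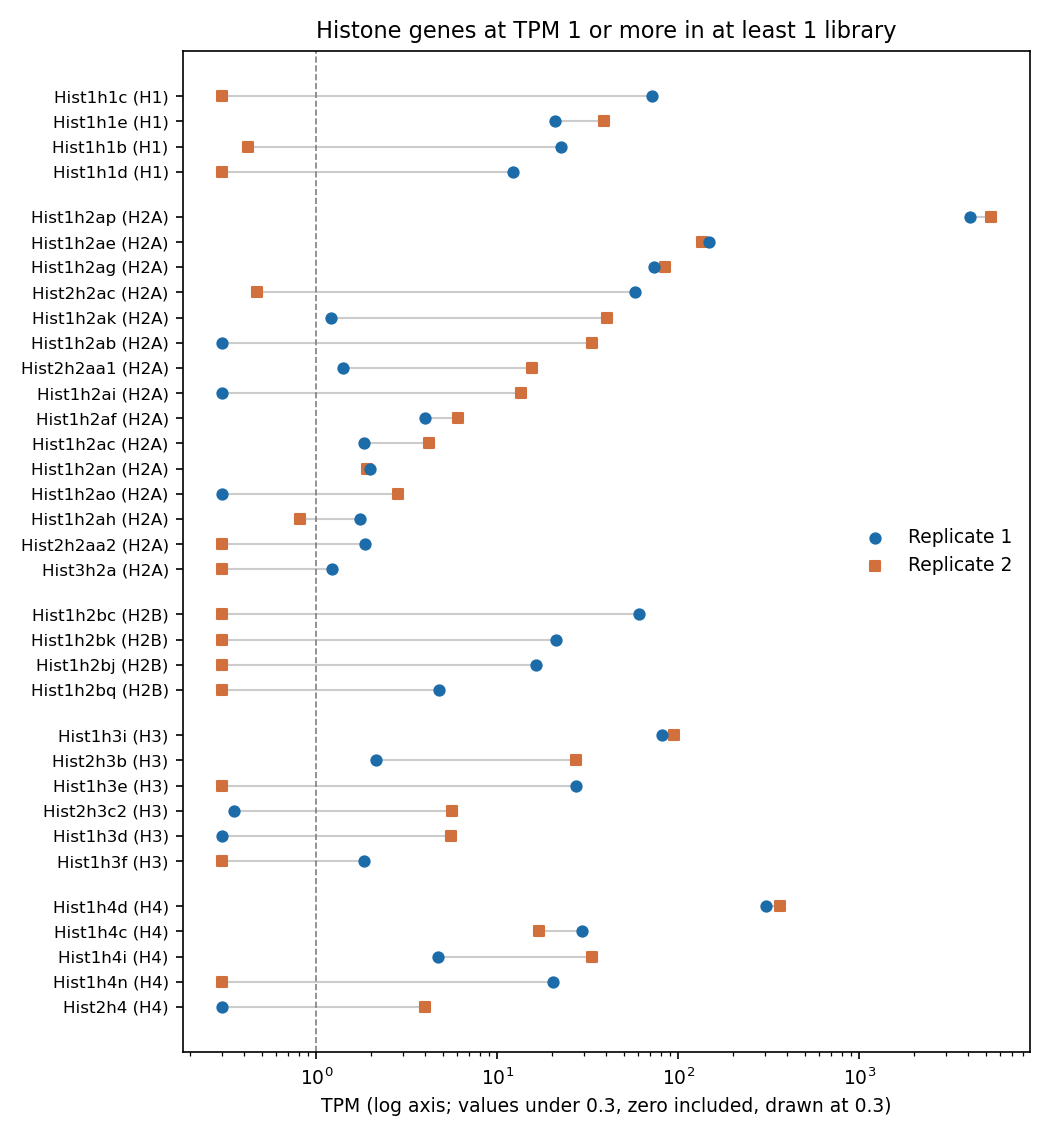
Level of each histone gene detected in at least 1 library, in TPM on a log axis, with a circle for replicate 1 and a square for replicate 2, and values under 0.3 drawn at 0.3. Hist1h2ap, Hist1h4d and Hist1h2ae lie above 100 TPM with close symbols, while all 4 H2B genes lie above 1 TPM in replicate 1 alone.

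The H2A genes held most of the RNA. Their sum was 4403 TPM in replicate 1 and 5695 in replicate 2, 86.2% and 90.6% of the histone total. Hist1h2ap, on chromosome 13 from 21833026 to 21833507 (minus strand), was the highest member at 4109 TPM in replicate 1 and 5357 in replicate 2. These levels ranked 17th and 11th among all Ensembl rows. The libraries differed by 0.36 on the centred log2 scale, under the 2-fold rule of size used below.

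Hist1h2ae, with 147 TPM in replicate 1 and 135 in replicate 2, was the next H2A gene. Hist1h2ag had 73.6 and 84.0 TPM. Both genes were close in the 2 libraries. Other H2A genes stood in replicate 2 far above replicate 1: Hist1h2ak had 1.2 and 40.3 TPM, and Hist1h2ab 0.23 and 33.5. Hist2h2ac, an H2A gene of the chromosome 3 cluster, went the other way with 57.6 and 0.47 TPM. Of the 18 H2A genes, 8 were detected in both libraries, more than in any other class. Hist1h2ai, without a read in replicate 1 and at 13.5 TPM in replicate 2, was among the 3 detected in replicate 2 alone.

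The H4 genes came next, with 360 TPM in replicate 1 and 420 in replicate 2. Hist1h4d (chromosome 13, 23581598 to 23582735, plus strand) held most of this sum, with 306 and 366 TPM. Hist1h4c had 29.4 and 16.9 TPM, and Hist1h4i 4.7 and 33.3. Thus the leading H4 gene was even between libraries and Hist1h4i was not. Hist1h4n had 20.4 TPM in replicate 1 and no read in replicate 2. Of the 13 H4 genes, 7 had no read in either library.

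The H3 genes summed to 114 TPM in replicate 1 and 134 in replicate 2. Hist1h3i (chromosome 13, 21782960 to 21783370, minus strand) led with 81.7 and 94.7 TPM. Hist2h3b had 2.14 and 27.4 TPM, and Hist1h3e had 27.0 TPM in replicate 1 and no read in replicate 2. The near-even H3 sums therefore stood over genes that were high in different libraries.

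The H1 genes, which encode the linker histones, summed to 127 TPM in replicate 1 and 39.1 in replicate 2. Hist1h1e was detected in both libraries, at 20.8 and 38.7 TPM. It was the only H1 gene detected in replicate 2. Hist1h1c (chromosome 13, 23738808 to 23740367, plus strand) had 3082 reads and 71.4 TPM in replicate 1 and no read in replicate 2, at least 1006-fold lower in CPM against a floor of 3 reads. Hist1h1b had 22.6 and 0.42 TPM, and Hist1h1d 12.2 TPM and no read. Hist1h1c and Hist1h1b share no identical stretch of 100 bases with each other or with any transcript compared below. The other H1 genes were not in that comparison. The expected count of Hist1h1c in replicate 1 was still fractional, 3082.34 with a deposited posterior SD of 6.64 reads. That of Hist1h1b was 430 in replicate 1 and 8 in replicate 2, with posterior SDs of 0. Whether reads were split with other transcripts was not tested.

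The H2B genes were nearly missing from 1 library. All 15 summed to 103 TPM in replicate 1 and 0.31 in replicate 2, from 1839 and 4 reads. In replicate 1, Hist1h2bc had 60.7 TPM, Hist1h2bk 21.1, Hist1h2bj 16.3 and Hist1h2bq 4.76. In replicate 2, Hist1h2bc had 0.06 TPM, and the other 3 had no read. The 3 symbols not analysed here are H2B genes too, and Hist1h2bh or Hist1h2bm shares windows of 100 bases with Hist1h2bk, Hist1h2bj and Hist1h2bq, so reads assigned outside these 15 rows are not in the sums. With a single library on each side the gap has no replicate check.

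**Figure D2:**
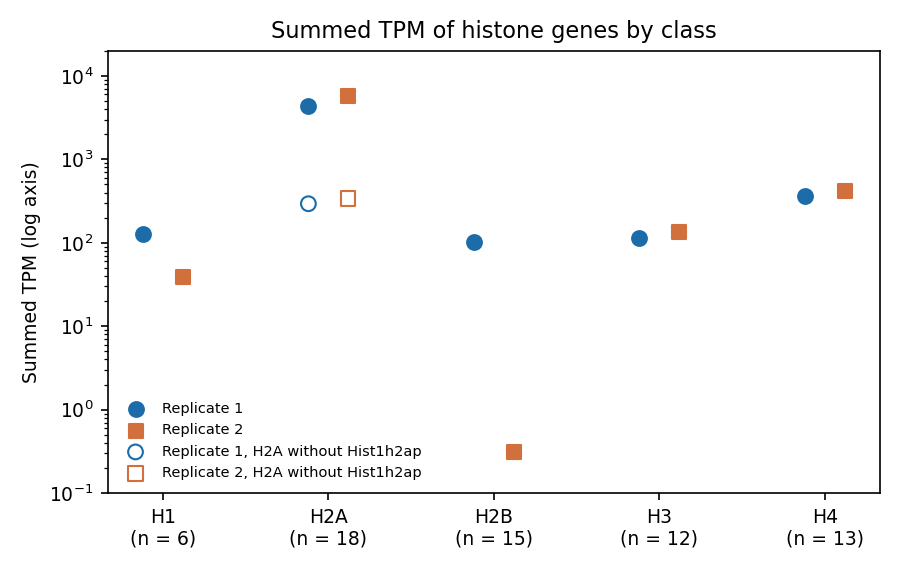
Summed TPM of the genes of each histone class on a log axis, with circles for replicate 1, squares for replicate 2 and open symbols for H2A without Hist1h2ap. H2A, H3 and H4 sums are close between libraries, while those of H2B are 103 and 0.31 TPM.

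Without Hist1h2ap the other 63 genes held 998 TPM in replicate 1 and 933 in replicate 2, and the order of the classes changed. H4 then took 36.1% and 45.1% of the sum, H2A 29.4% and 36.3%, H3 11.4% and 14.4%, H1 12.8% and 4.19%, and H2B 10.3% and 0.0332%. H4 was the highest class and H2A the next in both libraries, H2B was the lowest in both, and H1 and H3 changed places.

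The libraries were set against each other as log2 of TPM plus a pseudocount of 1, replicate 2 minus replicate 1. All 6801 rows with a mean TPM of 10 or more were used, their median was taken as 0, and a difference counted as past 2-fold with no test. Of the 64 genes, 18 reached that mean. Of these, 4 (22.2%) were higher in replicate 2, against 25.2% of all rows, and 7 (38.9%) were higher in replicate 1, against 25.8%. The 11 genes past 2-fold are also the 11 that lay under a TPM of 10 in 1 library, so their passing follows in part from the filter. The 7 genes at 10 TPM or more in both libraries were Hist1h2ap, Hist1h4d, Hist1h2ae, Hist1h3i, Hist1h2ag, Hist1h1e and Hist1h4c, and none of them was past 2-fold. Among these 18 genes the largest log2 ratios were -6.20 for Hist1h1c, -5.89 for Hist1h2bc and -5.34 for Hist2h2ac in favour of replicate 1, and 4.79 for Hist1h2ab, 4.20 for Hist1h2ak and 3.15 for Hist2h3b in favour of replicate 2.

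Several genes of middle level in replicate 1 were near 0 in replicate 2. At a TPM of 10 to 100 in replicate 1 there were 13 histone genes, and 9 of them (69.2%) were under a TPM of 1 in replicate 2, against 26.5% of protein-coding rows in that range. The 9 were Hist1h1b, Hist1h1c, Hist1h1d, Hist2h2ac, Hist1h2bc, Hist1h2bj, Hist1h2bk, Hist1h3e and Hist1h4n. They had 176 to 3082 reads in replicate 1 and 0 to 8 in replicate 2. At a TPM of 10 to 100 in replicate 2 there were 10 histone genes, and 2 of them (20%), Hist1h2ab and Hist1h2ai, were under a TPM of 1 in replicate 1, against 20.7% of protein-coding rows. The spike-in share of TPM was 5.83% in replicate 1 and 7.68% in replicate 2, and its part in these counts was not tested.

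**Figure D3:**
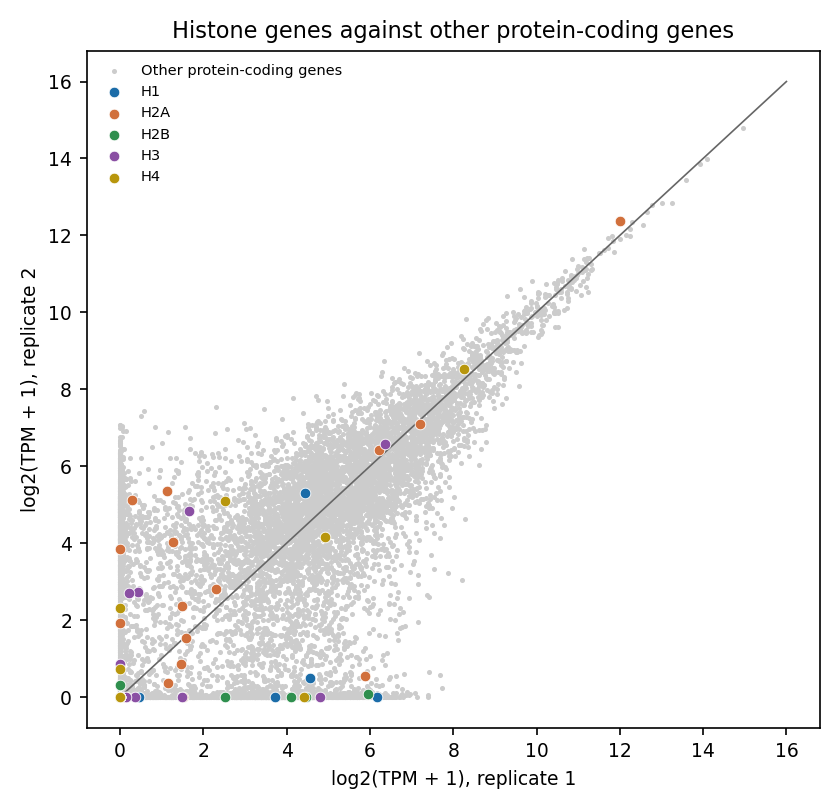
Level of each protein-coding gene as log2(TPM + 1) in replicate 1 (horizontal axis) and replicate 2 (vertical axis), with other genes in grey, histone genes coloured by class and a line of equal level. The highest histone genes lie near the line, and 3 genes of H1 and 4 of H2B lie along or near the horizontal axis.

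Across the 31 histone genes at a mean TPM of 1 or more, levels as log2(TPM + 1) had a Pearson correlation of 0.40 and a Spearman correlation of 0.13 between the libraries. Without Hist1h2ap the 30 others gave 0.13 and 0.04. Over 9193 protein-coding genes the values were 0.47 and 0.52. These correlations are across genes, which are not independent replicates, and near copies share reads.

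Near-identical copies limit what the rows of single genes can say. Windows of 100 bases were compared among the 46 genes whose transcript model was the same in both releases. They were also compared with annotated transcripts of genes outside the 64. The remaining histone genes, Hist1h2ae and Hist1h4d among them, were not compared, so windows shared with them are not counted. For 24 of the 46 genes fewer than 50% of the windows were found in that gene alone, for 4 (Hist2h2aa1, Hist2h2aa2, Hist2h3b and Hist2h3c1) none was, and for 4 all were. Windows on either strand of other genes' transcripts counted as shared, also where such a transcript overlaps the gene itself. Of those with none, only Hist2h2aa2 shared all its windows (429) with other genes of the 46. Hist2h3c1 shared 567 of 1721 with them and all 1721 with Gm20628 or Gm20634, of which Gm20634 overlaps it. Hist1h2ap shared 353 of its 383 windows with Hist1h2ao, and 30 (7.83%) were its own in this comparison. Over 452 aligned bases the sequences of Hist1h2ap and Hist1h2ao were identical.

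Reads of this pair were nevertheless assigned unevenly. Hist1h2ao had no read in replicate 1 and 31.6 expected reads in replicate 2 (2.82 TPM), with a deposited posterior SD of 22.8 reads, while Hist1h2ap had 46522 and 60270 expected reads with posterior SDs of 75.7 and 78.5. The level of Hist1h2ap is thus that of a group of copies as the quantification divided it. Among the 46 genes compared, the 13 H2A genes linked by a shared window summed to 4253 TPM in replicate 1 and 5555 in replicate 2. The 9 linked H2B genes summed to 42.3 and 0 TPM, and the 3 linked H3 genes of chromosome 3, Hist2h3b, Hist2h3c1 and Hist2h3c2, to 2.49 and 33.0.

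The A-rich stretch before the stem-loop was compared with the level of the gene, as a description, over the 30 genes with a placed site. The count of adenines among the 14 bases and the run length were looked at after the sequences and levels had been seen. The count of adenines ranged from 3 to 13, and its Spearman correlation with the mean TPM was 0.45, or 0.39 without Hist1h2ap. With the TPM of replicate 1 alone it was 0.37, or 0.30 without Hist1h2ap. With that of replicate 2 alone it was 0.36, or 0.28. Of the 7 sites with a run of at least 5 adenines, 3 belonged to genes whose mean TPM was 100 or more, and of the 23 sites with shorter runs, 0 did. Hist1h2ap and Hist1h2ao have the same 30 letters and levels of 4109 and 5357 against 0 and 2.82 TPM. Most windows of this pair are shared, so their levels depend on how the quantification divided the reads. Hist1h2ad, with a run of 5, had no read in either library. A run of at least 12 adenines stood in 2 of the 46 genes, Hist1h2ap and Hist1h2ao, or 2 of the 30 of at most 600 bases. Such a run stood in 0.555% of other protein-coding transcripts of at most 600 bases and in 3.11% of those of any length. Priming within these runs was not tested.

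**Figure D4:**
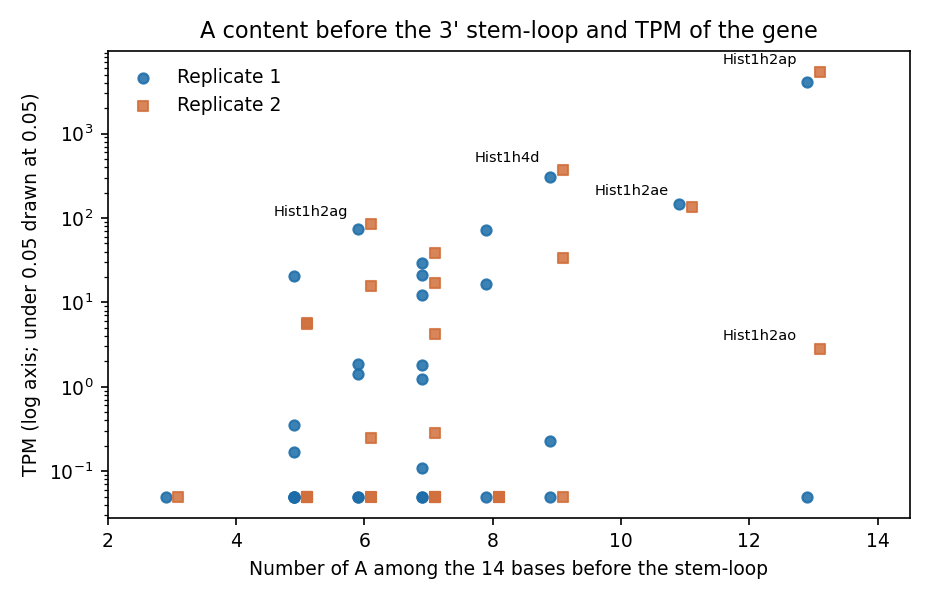
Number of adenines (A) among the 14 bases before the stem-loop (horizontal axis) and TPM on a log axis (vertical axis) for 30 histone genes, with circles for replicate 1, squares for replicate 2 and values under 0.05 drawn at 0.05. Hist1h2ap stands at 13 with the highest level. Hist1h2ao, a near copy that shares most of its windows with Hist1h2ap, has the same count with 0 and 2.82 TPM.

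Some histone genes are known from general annotation to give longer, polyadenylated mRNAs as well, and 9 such genes were listed from general knowledge. Of the 9, 1 was detected in both libraries (Hist1h2ac, 1.82 and 4.2 TPM), and 4 (Hist2h2be, Hist3h2ba, Hist1h4h and Hist2h3c1) had no read in either. Hist1h1c and Hist1h2bc made up most of the list's 135 TPM in replicate 1, and neither reached a TPM of 1 in replicate 2, where the list held 8.54 TPM. Hist3h2a had 1.22 and 0.28 TPM, and Hist2h4 was without a read in replicate 1 and had 4 TPM in replicate 2. In the reference transcripts of the 46 genes with the same model, a polyadenylation signal (AATAAA or ATTAAA, sense strand) lay within the last 50 bases in 12, and 1 of these 12 was detected in both libraries. Of the 21 with a stem-loop, 3 were detected in both libraries. Of the 13 without one whose last letters spell a stop codon, 4 were. Hist1h4i is counted among both the 12 and the 13. Hist1h1c, Hist3h2a, Hist3h2ba, Hist2h3c1, Hist1h4j and, in different transcripts, Hist1h2bp are counted among both the 12 and the 21. These groups are therefore not separate. Among all 30 genes with a placed stem-loop, same model or not, 8 were detected in both libraries. The share over all protein-coding rows was 27.3%.

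Several H2A and H2B genes that start head to head differed in level. There were 12 such pairs, all of 1 H2A and 1 H2B gene, with starts at most 306 bases apart. Hist1h2ap was the highest gene of all 64, and Hist1h2br, which starts 236 bases away on the other strand, had no read in either library. Hist1h2ae had 147 and 135 TPM and its neighbour Hist1h2bg 0 and 0.25. Hist1h2bc was a reverse case in replicate 1, with 60.7 TPM beside 1.82 for its neighbour Hist1h2ac. So were Hist1h2bk, with 21.1 TPM beside 1.74 for Hist1h2ah, and Hist1h2bq, with 4.76 TPM beside 0 for Hist1h2ao. In replicate 2 no H2B gene of the 12 pairs reached a TPM of 1.

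The bases between Hist1h2ap and Hist1h2br show what this pair shares. Upstream of the annotated start of Hist1h2ap, on its strand, RefSeq's promoter table (build GRCm38.p6, the same assembly as mm10) gives the following 218 bases, chr13:21833508-21833725, with the motifs CCAAT and TATAA in capitals, and with ATTGG where CCAAT lies on the other strand.
Hist1h2ap upstream: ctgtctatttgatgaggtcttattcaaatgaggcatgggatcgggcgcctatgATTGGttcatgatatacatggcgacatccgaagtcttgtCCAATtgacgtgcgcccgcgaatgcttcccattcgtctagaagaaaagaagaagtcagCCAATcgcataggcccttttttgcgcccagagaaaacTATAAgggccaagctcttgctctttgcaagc

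TATAA begins at base -31 from the annotated start, CCAAT at -126 and -68, and ATTGG at -165. The start used is that of GENCODE M21. It lies 32 bases upstream of the RefSeq start, so positions counted from the RefSeq start differ. CCAAT is the core of the site of the factor NF-Y, and TATAA is a form of the TATA box. In windows of 300 bases around the RefSeq starts, searched on both strands, CCAAT occurred in 50 of 59 matched histone genes (84.7%) and in 37.3% of 32791 promoters of other genes. It was in all 6 matched genes of H1, 18 of H2A, 13 of H2B and 10 of H3, and in 3 of 12 of H4. TATAA occurred in 48 of the 59 (81.4%) and in 24.8% of the promoters of other genes. ATTTGCAT, the octamer recognised by Oct factors, occurred in 11 (18.6%) against 1.70%, all in H2A and H2B genes. The windows of head-to-head genes can overlap, as those of Hist1h2ad and Hist1h2bf do. The same bases can then count for an H2A gene and for an H2B gene. The shares were not recomputed without this overlap. A match is a string of letters and not evidence of binding.

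Most genes for the handling of histone mRNA and protein were detected in both libraries. Of 35 genes of histone mRNA 3' end processing and turnover, 31 were detected in both libraries. For this list and those that follow, the share over all protein-coding rows is 27.3%. Slbp, which encodes the stem-loop binding protein, stood at 522 TPM in replicate 1 and at 493 in replicate 2. The highest were Snrpg (1140 and 819), Snrpe (798 and 710) and Snrpb (613 and 878), which encode Sm proteins shared by spliceosomal and U7 particles. Lsm10 and Lsm11, specific to the U7 particle, had 61.7 and 35.9 TPM and 5.5 and 5.07 TPM. Npat, the coactivator of histone gene transcription, was close to the detection limit with 1.39 and 0.02 TPM, and Zfp473, which encodes a zinc finger protein of the U7 complex, had no read. Among the 28 at a mean TPM of 10 or more, 4 (14.3%) were higher by 2-fold in replicate 2, against 25.2% of all rows, and 3 (10.7%) in replicate 1, against 25.8%. Their median log2 ratio was -0.01, where that of all rows is 0.

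Of 37 genes of S phase and DNA replication, 34 were detected in both libraries. They were led by Pcna, the sliding clamp (349 and 339 TPM), Rrm2, a ribonucleotide reductase subunit (296 and 324), and Tyms, thymidylate synthase (356 and 262). Among the 36 at a mean TPM of 10 or more, 8 (22.2%) were higher in replicate 1, against 25.8% of all rows, and 4 (11.1%) in replicate 2, against 25.2%. Their median log2 ratio was -0.22. Of 18 histone chaperones and deposition factors, 13 were detected in both, led by Nap1l1 (277 and 287 TPM), Rbbp7 (291 and 243) and Rbbp4 (165 and 262). Hira, a chaperone of the replacement histone H3.3, had no read in either library.

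Of 11 genes of replacement histones, 9 were detected in both libraries. Most replacement histones are made outside S phase as well and from polyadenylated mRNAs. Their median log2 ratio was -0.23, and of the 9 at a mean TPM of 10 or more, 2 (22.2%), H2afx and H1f0, were higher by 2-fold in replicate 1, against 25.8% of all rows, and 0 in replicate 2, against 25.2%. H2afz, which encodes H2A.Z, had 2569 and 2223 TPM, and H3f3a and H3f3b, which both encode H3.3, had 1692 and 1479, and 1026 and 1124 TPM. H1fx had no read in either library. The replacement histones summed to 6233 TPM in replicate 1 and 5444 in replicate 2. The replication-dependent genes had 0.819 times this sum in replicate 1 and 1.16 times in replicate 2, so the order of the groups was not the same in the 2 libraries. Cenpa, the centromeric H3, had 257 and 211 TPM.

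The tissue label was checked on markers chosen from general knowledge. All 4 hepatoblast markers and all 6 erythroid markers were detected in both libraries, among them Afp at 4870 and 4016 TPM. Of 4 markers of other cells, 3 were detected in both. Myl7, an atrial muscle gene, was at 0 in replicate 1 and at 93.5 TPM in replicate 2, and its part in the histone values was not tested.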

How the data were processed

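RNA was measured in 2 SmartSeq libraries of embryonic mouse liver. Reads were aligned to mm10 and quantified on GENCODE release M4, per the README files deposited with the libraries. The aligner and quantifier: not given in the sources used here. Deposited expected counts are estimated reads per gene. The deposited TPM, posterior mean TPM and FPKM are scaled by effective length and depth, per the file headers. In the transcript tables, a deposited percent gives each transcript's part of its gene. The posterior SD of each count was taken as deposited.

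Symbols, gene types, coordinates and transcript sequences came from GENCODE M21 (mm10), matched on identifiers without version (42462 of 43346 Ensembl rows). Promoters came from RefSeq, and 59 of the 64 genes matched. The genes and lists were chosen with earlier results of these data known. Counts of the libraries differed beyond sampling noise (chi-square per degree of freedom 814 over 11205 genes). With 1 group of 2 libraries no test and no p-value was computed. The script that applies the 2-fold rule was run on simulated data with known changes. Limits from read counts cover counting error only, since PCR copies are not independent molecules. On the log2(TPM + 1) scale the changes of low genes are understated. Without stated strand use, reads of a gene and an antisense partner cannot be told apart. The rows overlapping these genes were at 0, except Gm20628, antisense to Hist2h3b, with 0.07 and 0.28 TPM, and Hist1h1e, which the annotation of Hist1h2be overlaps.

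Genes named are the 3 highest of each class, the 3 largest ratios in each direction, the 5 highest detected in 1 library alone, the genes listed with polyadenylated forms, and the 3 highest and the undetected genes of the other lists. Further genes were named after their values were seen where a count needed them. Alternatives were FPKM, posterior mean TPM, CPM computed from the counts, TPM within Ensembl rows, other thresholds, pseudocounts, filters and centrings, each library alone, the sum without the highest gene, and linked copies summed. Python 3.11.15 with pandas 2.3.3, numpy 2.4.6, scipy 1.17.1 and biopython 1.88 was used.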

Additional observations from a re-analysis of the deposited data

Results flagged for a closer look

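Histone pseudogenes of the same clusters, which are not protein-coding and so were not among the 64 genes, also drew reads. Hist1h2aj had 19.75 expected reads in replicate 1 (2.64 TPM) and none in replicate 2. Hist1h2al had 1.18 expected reads in replicate 1 and 9.93 in replicate 2 (1.21 TPM). The values of 19.75 and 9.93 lie above the floor of 3 reads, and those of the same pseudogenes in the other library lie under it. Hist1h2aj and Hist1h2al share windows of 100 bases with H2A genes, and the split of reads between them was not tested. Hist3h2bb-ps had no read in either library.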

How the results depend on the processing

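Of 79 recomputed values, 22 moved. A share counted as moved when it shifted by more than 1 SD between the replicates, a count past 1.5 times, and a correlation past 0.1, a choice of this re-analysis. With n = 2 each library always lies less than 1 SD from the mean, so shares from 1 library alone cannot count as moved. They differ all the same: H2B had 0.00493% and 2.02% and H1 0.621% and 2.49%, without replicate 1 and without replicate 2. FPKM is in proportion to TPM within a library, and rescaling within Ensembl rows leaves class shares as they were. Such shares could not move either, so the 79 include values whose label was fixed in advance. The Pearson correlation of the histone genes became 0.160 with a pseudocount of 0.1 and 0.134 without Hist1h2ap. The 14 genes detected in both libraries became 9 by CPM, 21 at a TPM of 0.1, 7 at a TPM of 10, 9 with linked copies summed (31 units, an alternative chosen after seeing the data), and 20 to 28 with each replicate left out in turn. The 7 genes higher in replicate 1 became 3 by CPM, 4 with copies summed and 12 with no filter. The 4 higher in replicate 2 became 1 by CPM, 1 with copies summed, 10 at a mean TPM of 1 and 10 with no filter. The share of all signal, 0.570%, became 0.198% in CPM, which are not divided by length, and 0.0965% without Hist1h2ap. Without Hist1h2ap the mean class shares were 8.48% for H1, 32.9% for H2A, 5.18% for H2B, 12.9% for H3 and 40.6% for H4, and in CPM H1 had 3.96% and H4 5.57%. Centring on 38 spike-ins, whose median log2 ratio was 0.42, lowered the share of rows past 2-fold that were higher in replicate 2 from 49.4% to 37.6%. Summing genes with identical proteins was planned and not run, and the cause of the other changes was not tested. With 1 group of 2 libraries, a difference between libraries has no error of its own, and genes under about 3 reads cannot be told from 0.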
